A study of Mus musculus with 2 samples.

Results

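The Slit, Robo and netrin guidance genes were followed across cell types in mouse celiac and superior mesenteric ganglia, which are sympathetic and lie in front of the spine with their axons going to the gut and other abdominal organs. They are 10 of the 32183 genes counted, chosen by name, with earlier results of these data known: the ligands Slit1, Slit2, Slit3 and Ntn1, and the receptors Robo1, Robo2, Dcc, Unc5b, Unc5c and Unc5d. Single-cell RNA was measured in 2 libraries of 1 group, CGSMG, from digested ganglia. The series used 20 mice, aged 7 to 8 weeks, with the sexes in equal number. The sources used here name no strain, no treatment and no assignment of animals to libraries, so the spread between libraries may be technical. All comparisons are therefore between cell types of the same suspensions.

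Slit proteins are secreted and bind Robo receptors, mostly repelling growing axons and migrating cells. Netrin-1, the product of Ntn1, attracts axons through DCC and repels them when UNC5 receptors are engaged. Outside the nervous system these genes also act in vessels and stroma: ROBO4 and UNC5B are known in endothelium, and SLIT2 and SLIT3 are made by mesenchymal cells.

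In the mouse genome (GRCm38, GENCODE M21), Robo1 lies on chromosome 16 from 72308306 to 73046095 on the plus strand, and Robo2 on the same chromosome from 73891839 to 74411825 on the minus strand. Slit1 is on chromosome 19 (41600257 to 41743665, minus), Slit2 on chromosome 5 (47983138 to 48307733, plus) and Slit3 on chromosome 11 (35121224 to 35708507, plus). Ntn1 is on chromosome 11 as well (68209364 to 68400823, minus). Dcc is on chromosome 18 (71253634 to 72351069, minus), Unc5b on chromosome 10 (60762593 to 60831581, minus), Unc5c on chromosome 3 (141465216 to 141834924, plus) and Unc5d on chromosome 8 (28646717 to 29219636, minus). All are protein-coding genes.

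Promoter sequences of RefSeq (GRCm38.p6) were found for 6 of the 10 genes. Those of Slit2, Robo2 and Unc5b are shown because these genes differed in opposite directions, or in different cells, in the comparisons given further on. RefSeq had 3 such stretches for Robo2, of which the one directly upstream of the annotated gene is shown. Each line is the stretch of 250 bases before a RefSeq start, 5′ to 3′ on the gene's strand, at chr5:47982905-47983154, chr16:74411826-74412075 and chr10:60831582-60831831. Capitals mark the GC box GGGCGG on either strand and, in Slit2, TATAAA.

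Slit2: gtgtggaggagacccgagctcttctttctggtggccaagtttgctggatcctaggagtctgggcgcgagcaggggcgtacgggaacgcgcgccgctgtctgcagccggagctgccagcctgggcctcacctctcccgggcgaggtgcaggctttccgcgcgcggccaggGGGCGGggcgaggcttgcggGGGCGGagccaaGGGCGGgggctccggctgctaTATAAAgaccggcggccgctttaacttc

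Robo2: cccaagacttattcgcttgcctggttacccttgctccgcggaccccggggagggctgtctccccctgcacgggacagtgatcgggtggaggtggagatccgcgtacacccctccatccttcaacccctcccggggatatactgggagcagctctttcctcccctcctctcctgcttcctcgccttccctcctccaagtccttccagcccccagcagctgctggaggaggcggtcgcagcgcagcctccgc

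Unc5b: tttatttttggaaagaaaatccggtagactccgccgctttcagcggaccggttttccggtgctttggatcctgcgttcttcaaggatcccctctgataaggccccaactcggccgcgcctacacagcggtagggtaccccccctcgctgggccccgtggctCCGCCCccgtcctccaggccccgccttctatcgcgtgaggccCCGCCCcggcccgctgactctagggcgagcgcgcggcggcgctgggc

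The Slit2 stretch held 3 GC boxes and 1 TATAAA, the Unc5b stretch 2 GC boxes, and the Robo2 stretch shown neither, like the other 2 of Robo2. Over all 32536 promoter stretches of this length, 33.0% held a GC box and 12.3% held TATAAA. A match is a run of letters and not a shown binding site.

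Values are CPM, the UMIs (unique molecular identifiers, each marking a captured RNA molecule) of a gene summed over the cells of a population in a library and scaled to the same total in every sum. Unless stated otherwise, they come from the UMIs not used for clustering. The Malat1 values of clusters come from the UMIs used for clustering, with both libraries pooled. Percentages of the level in neurons, shares of cells and shares of a gene's UMIs come from all UMIs, thinned where stated. The libraries held 12033 and 11640 cells after filtering, and 94521010 and 95235439 UMIs before it. Of the barcode sequences, 64 occurred in both libraries. The named neuron types were a Shox2-rich cluster (58 and 65 cells) and an Rxfp1-rich cluster (68 and 63 cells), named after the noradrenergic neuron types of these ganglia. Both carried the neuronal and noradrenergic markers: Snap25 was at 1923 and 1936 CPM in Shox2-rich neurons, against 1319 and 1368 CPM in Rxfp1-rich neurons. Dbh, the enzyme that makes noradrenaline, was at 445 and 355 CPM in Shox2-rich neurons, against 444 and 362 CPM in Rxfp1-rich neurons. Dbh marks these clusters less sharply than Snap25. In non-neuronal classes Stmn2, Th and Dbh stood at 17.7% to 93.1% of their level in the named neurons. Snap25 and Elavl4 stood at 2.17% to 10.9%. There were 11 non-neuronal classes with at least 50 cells in each library: satellite glia, non-myelinating and myelinating Schwann cells, fibroblasts, perineurial or epineurial cells, pericytes, smooth muscle cells, blood endothelial cells, macrophages, dendritic cells and mast cells. These names stand for cells like those types by their markers. A fold or an interval from UMIs covers counting error only.

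Neurons of the named types carried the receptors Dcc, Unc5c, Robo1 and Robo2 above every non-neuronal class taken as a whole, though Robo1 in 1 fibroblast cluster described further on overlapped Shox2-rich neurons, while the ligand Ntn1 was lower in neurons. Of the 10 genes, 8 were higher in neurons than in the mean of the 11 non-neuronal classes, 1 was lower (Ntn1), and Slit1 did not pass the test (log2 fold change 1.84, adjusted p = 0.189 by edgeR), though it did when all UMIs were tested (2.62, adjusted p = 0.0301). All 10 passed the filter on low counts. In the same test 64.6% of the 16531 genes were called, 5239 higher and 5435 lower, so that a call alone says little about these genes and their size is what is described here. Tests were edgeR quasi-likelihood tests on the 26 sums of 13 populations and 2 libraries, with Benjamini-Hochberg adjustment over all genes and a threshold of 0.05. Scaling by the RLE method in place of TMM moved the median of all genes in this comparison to 0.15, against -0.20 on the log2 scale, and the split to 6384 higher and 4288 lower genes, and DESeq2 gave 6412 higher and 4633 lower. The directions of the 9 called guidance genes were the same under all 3. Because several classes had few or no UMIs of a gene, the folds given in the next sentences are plain ratios of CPM, neurons over all non-neuronal classes pooled.

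Dcc, the netrin receptor for attraction, had 292 and 236 CPM in Shox2-rich neurons and 590 and 557 CPM in Rxfp1-rich neurons. No non-neuronal class had more than 13.1 CPM in either library, and fibroblasts had 6.24 and 8.31 CPM. Neuron and non-neuronal values did not overlap, though how many of all genes behave so was not counted. The pooled neurons were 149-fold and 89.5-fold higher than the pooled other classes (adjusted p = 2.60e-72 by edgeR).

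Unc5c, a netrin receptor for repulsion, had 265 and 272 CPM in Shox2-rich neurons and 642 and 600 CPM in Rxfp1-rich neurons. Its highest non-neuronal values were 22.5 and 5.76 CPM in pericytes, where the libraries disagree, and 12.7 and 13.2 CPM in smooth muscle cells, where they do not. The pooled neurons were 112-fold and 123-fold higher than the pooled other classes (adjusted p = 1.95e-74 by edgeR). Dcc and Unc5c were thus the receptors with the widest gap between neurons and the rest.

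Robo1 had 70.5 and 94.0 CPM in Shox2-rich neurons and 432 and 447 CPM in Rxfp1-rich neurons, against 11.3 and 13.5 CPM in the non-neuronal classes pooled. Robo2 had 238 and 264 CPM in Shox2-rich neurons and 118 and 152 CPM in Rxfp1-rich neurons, against 8.00 and 7.87 CPM in the pooled classes. The neuron-to-other ratio was 24.7 and 19.6 for Robo1 (adjusted p = 3.34e-49 by edgeR). It was 21.1 and 26.6 for Robo2 (adjusted p = 3.34e-56 by edgeR). Both are receptors for Slits, and both were also found at lower levels in stroma and vessels.

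Unc5b had 53.7 and 49.9 CPM in Shox2-rich neurons and 41.3 and 31.8 CPM in Rxfp1-rich neurons, against 5.61 and 4.75 CPM in the pooled other classes (adjusted p = 5.45e-22 by edgeR). The Rxfp1-rich values overlapped those of mast cells, at 22.0 and 36.7 CPM, while the Shox2-rich values did not. Unc5d stayed at or below 7.34 CPM in every population of the fit. It was called higher in neurons (adjusted p = 0.00255 by edgeR) on 3 and 5 UMIs in Shox2-rich neurons and 4 and 2 UMIs in Rxfp1-rich neurons, and mast cells, with 1 UMI per library, had as high a CPM.

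Of the ligands, Slit3 had 1080 and 1339 CPM in Shox2-rich neurons and 993 and 1209 CPM in Rxfp1-rich neurons, against 125 and 141 CPM in the pooled other classes (adjusted p = 2.80e-87 by edgeR). That ratio was 8.25 and 9.05, smaller than for the receptors Dcc, Unc5c, Robo1 and Robo2, and fibroblasts and mural cells also carried Slit3. Slit2 had 10.1 and 12.8 CPM in Shox2-rich neurons and 110 and 114 CPM in Rxfp1-rich neurons, against 33.8 and 29.8 CPM in fibroblasts as a class, which lay between the types. Slit1 had 1 UMI in library 1 and 0 in library 2 in each neuron type, where 0 UMIs allow up to 4.27 CPM in Shox2-rich and 4.54 CPM in Rxfp1-rich neurons (3 counts). Ntn1 had 0 and 2.85 CPM in Shox2-rich neurons and 4.86 and 1.51 CPM in Rxfp1-rich neurons, against 47.1 and 45.1 CPM in the pooled other classes (adjusted p = 5.11e-11 by edgeR).

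**Figure D1:**
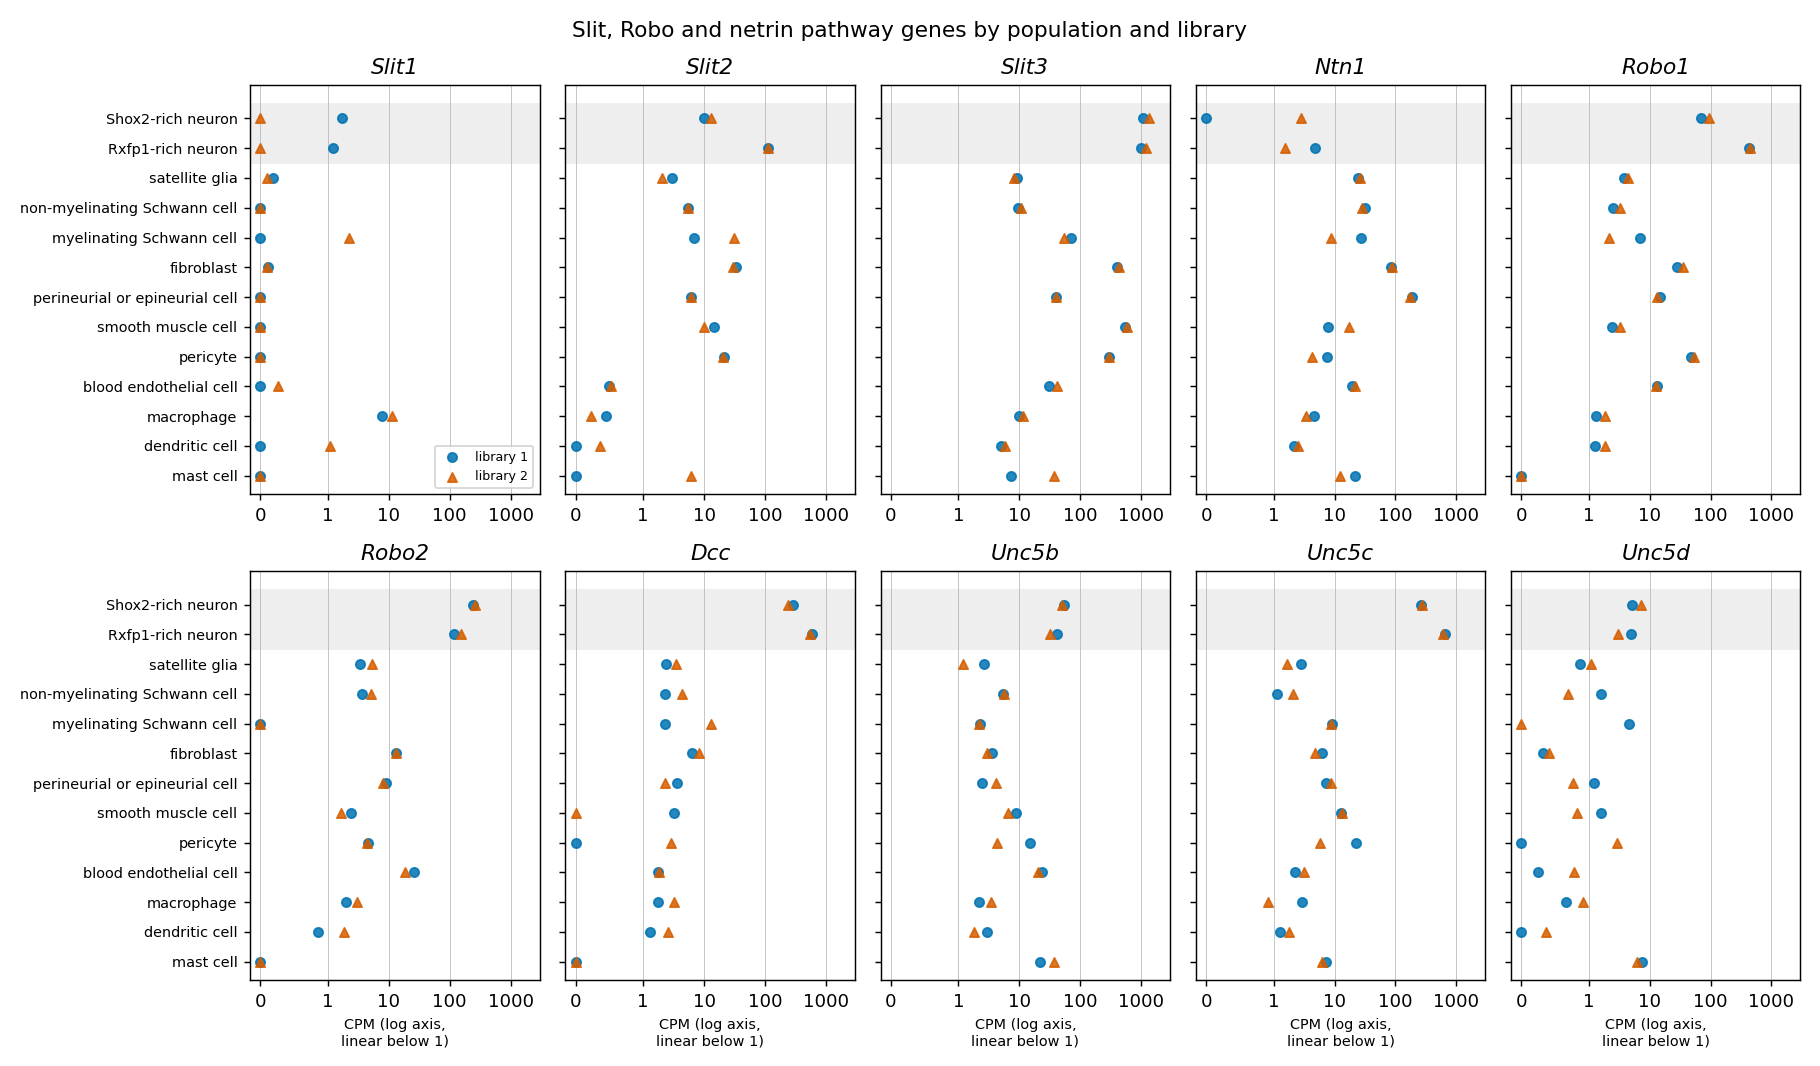
Level of each gene in CPM (horizontal, log axis that is linear below 1) in the 13 populations of the fit, with circles for library 1 and triangles for library 2; the neuron types are on the grey band. Dcc and Unc5c stand above 200 CPM in both neuron types and at or below 22.5 CPM in all other classes, while Ntn1 is at or below 4.86 CPM in neurons, as in macrophages and dendritic cells, and Slit1 is highest in macrophages, at 7.77 and 11.2 CPM.

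The RNA of neurons was also found in droplets of other cells, and its level there is given beside that of the guidance genes. Relative to the named neuron types, Rbfox1, Cntn5, Cntnap2 and Nrg3 stood at 0.147% to 1.31% in the 11 classes and 2 libraries. Snap25 and Elavl4 stood at 2.17% to 10.9%, and Stmn2, Th and Dbh at 17.7% to 93.1%. On the same scale Dcc was at 0% to 1.92% and Unc5c at 0.239% to 3.94%, so both exceeded the first group of neuronal genes in some class and stayed below the third. Robo1 in pericytes reached 17.4%, Robo2 in blood endothelial cells 13.2% and Slit3 in smooth muscle cells 54.7%. These values too lie within the wide range of the neuronal genes, and the part of neuronal RNA in the levels outside neurons was not tested for any of the 10 genes.

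Neuron-like clusters outside the named types varied widely and held most of the neuron-like cells. Together they held 23.08% and 22.45% of the Dcc UMIs and 19.95% and 23.18% of the Unc5c UMIs. The largest, of 374 and 357 cells, had a median of 1797 UMIs per cell. The named types had 58 and 65 (Shox2-rich) and 68 and 63 (Rxfp1-rich) cells. That largest cluster was low in the nuclear RNA Malat1 (4168 CPM, against 74855 CPM in Shox2-rich and 80339 CPM in Rxfp1-rich neurons). It had 16.1 and 33.5 CPM of Dcc and 16.1 and 19.5 CPM of Unc5c. Another, of 174 and 176 cells with a median of 2871 UMIs, had 73.1 and 87.6 CPM of Dcc. It was not led by markers of other cells, and was left out because a named type needed a median of at least 5000 UMIs. Clusters with medians of 1955 and 1983 UMIs had 16.2 and 30.1 CPM and 155 and 201 CPM of Dcc, the first from 1 and 2 UMIs and the second from 10 and 12 UMIs. A cluster with a median of 19782 UMIs, led by fibroblast markers, had 313 and 270 CPM of Dcc, a range that overlaps that of Shox2-rich neurons. The named types had medians of 20235 UMIs (Shox2-rich) and 22038 UMIs (Rxfp1-rich). The deepest cluster, with a median of 29749 UMIs and macrophage markers, had 75.7 and 183 CPM of Dcc. Malat1 was at 7428 CPM in the cluster with a median of 2871 UMIs. In the clusters with medians of 1955 and 1983 UMIs it was at 13703 and 34911 CPM. It was at 64331 CPM in the cluster led by fibroblast markers and at 26137 CPM in the deepest. Whether Dcc in these clusters depends on depth, nuclear RNA or RNA of other cells was not tested. With all neuron-like cells in place of the named types, the same 9 genes were called in the same directions.

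The neuron types differed from each other in 5 of the 10 genes, against 6.09% of the 16531 genes tested. Slit2, Robo1, Unc5c and Dcc were lower in Shox2-rich than in Rxfp1-rich neurons, and Robo2 was higher. Slit3, Unc5b, Unc5d, Ntn1 and Slit1 did not pass the test. The library values of the 5 called genes did not overlap between the types, but neither did those of the uncalled Unc5b and Unc5d. The share of all genes without such overlap was not counted.

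Robo1, at 70.5 and 94.0 CPM in Shox2-rich neurons against 432 and 447 CPM in Rxfp1-rich neurons, differed by -2.48 ± 0.14 on the log2 scale (SE, adjusted p = 6.70e-30 by edgeR). Robo2 ran the other way, with 238 and 264 CPM in Shox2-rich neurons against 118 and 152 CPM in Rxfp1-rich neurons, and a fitted log2 change of 0.85 ± 0.15 (SE, adjusted p = 3.44e-06 by edgeR). These are the receptors for the same ligands, so the order of the neuron types was reversed between them. Slit2, a ligand of both, had 10.1 and 12.8 CPM in Shox2-rich neurons against 110 and 114 CPM in Rxfp1-rich neurons, which is -3.33 ± 0.31 on the log2 scale (SE, adjusted p = 4.19e-16 by edgeR). This was the largest fitted difference among the 5 called genes.

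The netrin receptors Unc5c and Dcc moved in the same direction. Their log2 fold changes were -1.27 ± 0.11 for Unc5c (SE, adjusted p = 7.56e-19 by edgeR) and -1.20 ± 0.11 for Dcc (SE, adjusted p = 4.86e-16 by edgeR). Leaving out library 1 or library 2 kept all 5 directions, with values of -3.19 and -3.54 for Slit2, -2.30 and -2.70 for Robo1, and 0.75 and 0.93 for Robo2. Slit3 differed by 0.08 ± 0.08 on the log2 scale (SE, adjusted p = 0.733 by edgeR) and Unc5b by 0.43 ± 0.30 (SE, adjusted p = 0.569 by edgeR).

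Counts of cells gave the same order. Each cell was thinned to 5000 UMIs, which left out 0 and 6 Shox2-rich and 0 and 7 Rxfp1-rich cells. A UMI of Robo1 was then found in 19.0% and 22.0% of Shox2-rich neurons, against 52.9% and 60.7% of Rxfp1-rich neurons. In macrophages, taken as a background class, the share was 0.877% and 0.345% at median depths of 7838 and 7876 UMIs. For Slit2 the shares were 5.17% and 3.39% of Shox2-rich neurons, against 29.4% and 35.7% of Rxfp1-rich neurons. For Robo2 they were 46.6% and 55.9% of Shox2-rich neurons, against 30.9% and 35.7% of Rxfp1-rich neurons, and the exact 95% binomial intervals of the types overlapped in each library.

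At least 1 Dcc UMI was seen in 31.0% and 35.6% of Shox2-rich neurons, against 85.3% and 85.7% of Rxfp1-rich neurons, and in 0.658% and 1.61% of macrophages. Without thinning the shares were 41.4% and 43.1% of Shox2-rich neurons, against 98.5% and 95.2% of Rxfp1-rich neurons. For Unc5c the shares were 51.7% and 66.1% of Shox2-rich neurons, against 89.7% and 82.1% of Rxfp1-rich neurons. More Shox2-rich neurons thus lacked a Dcc UMI than had one, even at full depth, although the cluster's summed level exceeded that of every non-neuronal class. Both Dcc and Unc5c were found in 4 of 58 and 12 of 59 Shox2-rich neurons, against 52 of 68 and 41 of 56 Rxfp1-rich neurons. The product of the separate shares was 16.1% and 23.5% in Shox2-rich neurons, where 6.90% and 20.3% of cells had both.

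Nearly every neuron had Slit3, with 100% and 98.3% of thinned Shox2-rich neurons, against 98.5% and 100% of Rxfp1-rich neurons. Cells with both Slit3 and a Slit receptor were therefore about as frequent as cells with the receptor. In Shox2-rich neurons 11 and 13 cells had Slit3 and Robo1, and 27 and 32 had Slit3 and Robo2. In Rxfp1-rich neurons 35 and 34 cells had Slit3 and Robo1, and 21 and 20 had Slit3 and Robo2. Cells are not replicates, so these shares describe the libraries.

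**Figure D2:**
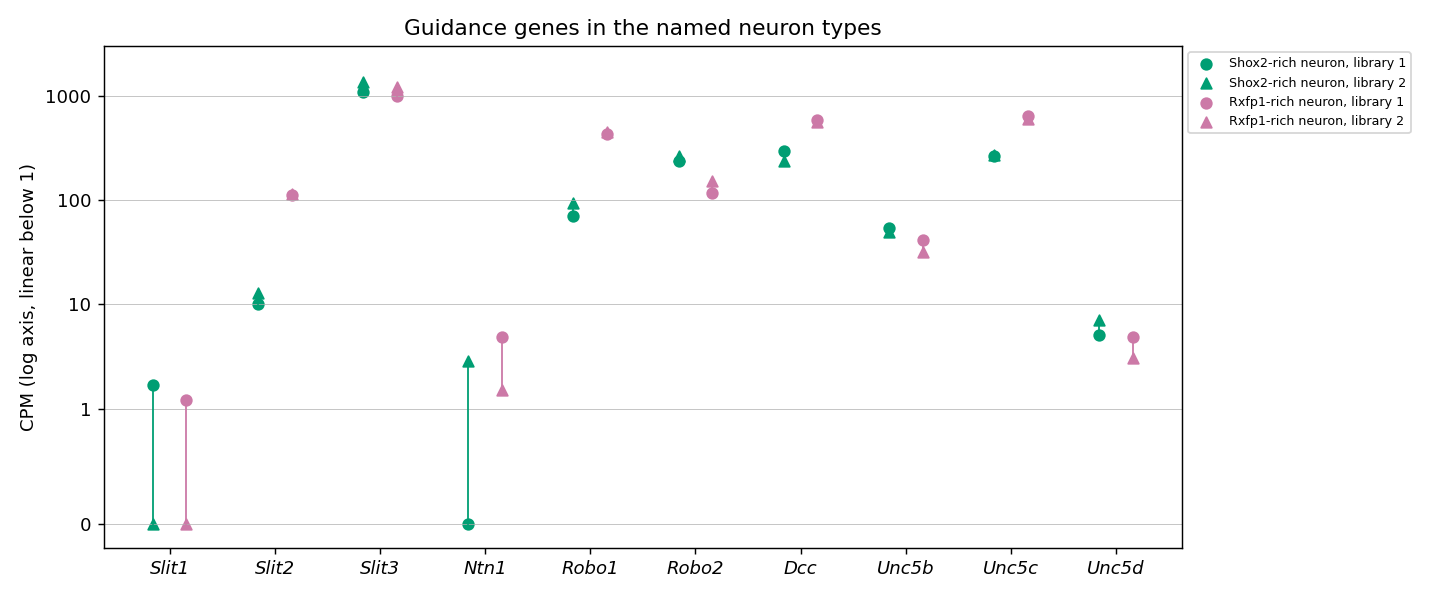
Level of each gene in CPM (vertical, log axis that is linear below 1) in Shox2-rich neurons (left of each pair) and Rxfp1-rich neurons (right), with circles for library 1, triangles for library 2 and a line joining them. Slit2, Robo1, Dcc and Unc5c lie lower in Shox2-rich neurons and Robo2 lies higher, while the Slit3 values of the types overlap.

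Of a list of 31 related genes (other netrins, UNC5 and Robo members, Slit-Robo GTPase-activating proteins and coreceptors), 28 were measured well enough to test. Between the neuron types 0 were higher and 2 lower, a share near the 6.09% of all genes called in that comparison. They were Ntng1, a membrane-anchored netrin relative, and Adgrl3, a latrophilin that binds UNC5 and FLRT proteins. Their log2 fold changes were -0.73 ± 0.19 and -0.39 ± 0.08 (SE). Of 21 intracellular effectors, Fyn was higher by 0.87 ± 0.21 and Ablim1 was lower, at -1.07 ± 0.10 on the log2 scale (SE). FYN is a kinase downstream of DCC and ABLIM1 an actin-binding protein, and the remaining 19 did not pass the test. The list medians were -0.18 (related) and -0.07 (effectors), against -0.01 for all genes.

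Against the non-neuronal classes, 15 related genes were higher in neurons, 6 lower and 7 not called, where 64.6% of all genes were called. Higher were Dscam, a cell-surface protein also reported to bind netrin, at a log2 fold change of 6.08 ± 0.23, the GTPase-activating proteins Srgap3 (3.87 ± 0.08) and Srgap1 (2.51 ± 0.10), which act below ROBO, and Unc5a (3.17 ± 0.23, all SE). Lower were Ntn4, a netrin of basement membranes, at -6.32 ± 0.94, and Dag1, encoding the Slit-binding dystroglycan, at -1.64 ± 0.12 (SE). Of the effectors 11 were higher, 8 lower and 2 not called, to be read against the same 64.6%. Trim67 (5.86 ± 0.31) and Trim9 (5.25 ± 0.26), ubiquitin ligases that bind DCC, were among the higher ones, as was Enah (2.55 ± 0.09), an actin regulator. Dock1 (-5.09 ± 0.30) and Myo10 (-3.19 ± 0.33, all SE), which also act in netrin signalling, were lower. The list medians were 0.75 and 0.47 on the log2 scale, against -0.20 for all genes.

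Outside neurons each gene had its own set of classes. Each class was set against the mean of the other 10 non-neuronal classes, and 41 of the 110 tests of the guidance genes passed. Among all genes 48.1% were called in fibroblasts, 39.6% in perineurial or epineurial cells, 34.5% in smooth muscle cells, 21.4% in pericytes and 47.5% in blood endothelial cells. They were 48.8% in macrophages, 52.1% in dendritic cells, 50.7% in satellite glia, 43.3% in non-myelinating Schwann cells, 20.3% in myelinating Schwann cells and 11.6% in mast cells. Taken over all classes, the guidance genes were thus called about as often as genes in general, and their levels are what is described. The test weighs the classes equally, so that a gene can be called higher than the mean of the others while lying below their pooled level. This holds for Ntn1 in both glial classes named further on. In library 2 it also holds for Robo1 in blood endothelial cells and in perineurial or epineurial cells.

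Fibroblasts carried both kinds of Slit and were called for 7 of the 10 genes, 6 of them higher: Slit3, Slit2, Robo1, Robo2, Ntn1 and Dcc. Of all genes, 48.1% were called in fibroblasts. Slit3 had 407 and 440 CPM in fibroblasts, against 42.9 and 46.0 CPM in the other non-neuronal classes pooled (adjusted p = 1.88e-80 by edgeR). Slit2 had 33.8 and 29.8 CPM in fibroblasts, against 3.62 and 3.46 CPM in the pooled others (adjusted p = 8.43e-41 by edgeR). Robo1 had 28.6 and 35.6 CPM in fibroblasts, against 6.35 and 6.46 CPM (adjusted p = 8.84e-37 by edgeR). Robo2 had 13.4 and 13.2 CPM in fibroblasts, against 6.44 and 6.17 CPM. Unc5b was lower by the test, at 3.61 and 2.97 CPM in fibroblasts, but its log2 fold change turned to 0.31 when doublets were kept. That setting also clustered the cells anew and added a T cell class to the mean of the others.

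Fibroblasts were many cells, 2282 and 2303, and by number of UMIs they held most of the Slit transcripts of the tissue sample. Of all Slit3 UMIs, 51.2% and 53.0% were in fibroblasts, 20.5% and 22.1% in the named neuron types and 9.92% and 9.02% in smooth muscle cells. Of Slit2 UMIs, 54.8% and 57.1% were in fibroblasts and 17.0% and 15.6% in the named neuron types. Dcc was the opposite, with 64.1% and 59.9% of its UMIs in 126 and 128 named neurons. These shares follow how many cells of each class were captured.

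**Figure D3:**
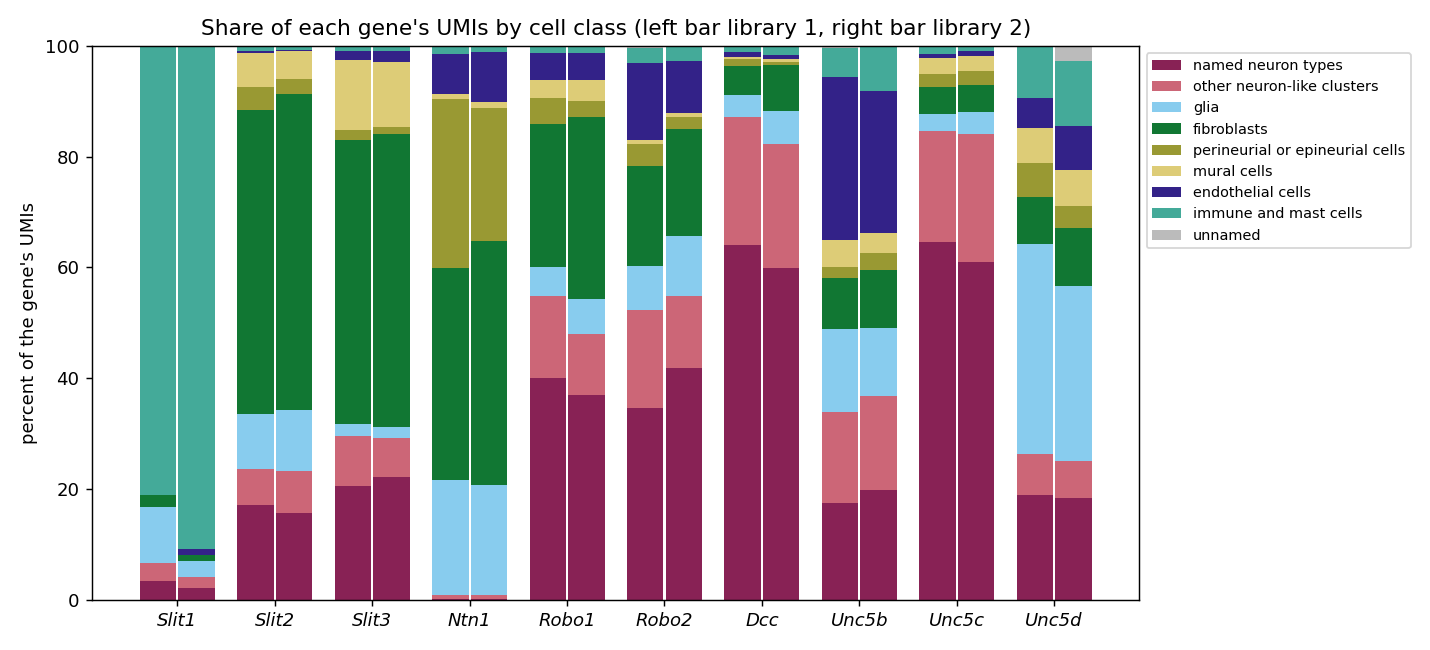
Share of each gene's UMIs (vertical, percent of the UMIs of that gene in a library) by cell class, with the left bar of each pair for library 1 and the right bar for library 2. Fibroblasts held over 51% of the Slit2 and Slit3 UMIs, macrophages (drawn within the immune and mast cells) 81.1% and 86.9% of the Slit1 UMIs, and named neurons 59.9% to 64.7% of the Dcc and Unc5c UMIs.

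Among the 4 fibroblast clusters the Slits were uneven. A Clec3b-rich cluster of 422 and 432 cells, which also had the highest Pi16 (281 and 335 CPM), had 1285 and 1394 CPM of Slit3. The other clusters had 197 to 556 CPM of Slit3. Its Slit2 was at 167 and 165 CPM, against at most 15.7 CPM in the others, and its Robo1 at 93.2 and 147 CPM, against 10.7 to 42.5 CPM in the others. The comparison of this cluster with the mean of the others was chosen after its values were seen. In it 6 of 9 tested guidance genes were called, against 23.1% of the 15029 genes tested, and Slit2 had a log2 fold change of 5.25 ± 0.18, Robo1 of 2.88 ± 0.15 and Slit3 of 2.30 ± 0.06 (SE). Unc5d did not pass the filter on low counts there. Slit3 in Clec3b-rich fibroblasts was thus as high as in Shox2-rich neurons, whose values it overlapped, and above Rxfp1-rich neurons. Its Robo1 likewise overlapped that of Shox2-rich neurons (70.5 and 94.0 CPM), and its Slit2 lay above that of both neuron types. Robo2, Dcc and Ntn1 were lower than in the other fibroblasts, with Robo2 at 9.26 and 8.49 CPM, against up to 40.3 CPM in a cluster with a median of 3432 UMIs per cell. Malat1 was at 91068 CPM in that cluster, against 28902 CPM in the Clec3b-rich cluster and 42246 and 40688 CPM in the remaining clusters. Whether these differences depend on depth or nuclear RNA was not tested.

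The netrin ligand Ntn1 had its highest level in the fit in perineurial or epineurial cells, which form the sheaths of nerves and ganglia. It had 184 and 171 CPM there, against 35.0 and 36.4 CPM in the other non-neuronal classes pooled (adjusted p = 9.63e-58 by edgeR). Fibroblasts came next, with 85.4 and 87.2 CPM. Non-myelinating Schwann cells had 31.1 and 28.8 CPM and satellite glia 24.5 and 26.1 CPM. The ranges of these 4 classes did not overlap, and how many of all genes behave so was not counted. Robo1, Robo2 and Unc5c were also called higher in perineurial or epineurial cells, at 14.9 and 13.4 CPM for Robo1. Their ratios to the pooled others were only 1.35 and 0.993 for Robo1 and 1.15 and 1.02 for Robo2, and 1.79 and 2.82 for Unc5c. The calls of Robo2 and Unc5c were lost when cells were thinned to 1500 UMIs. After thinning, Ntn1 was found in 53.4% and 49.7% of perineurial or epineurial cells, against 30.3% and 30.7% of fibroblasts, 10.9% and 10.6% of satellite glia and 1.97% and 0.921% of macrophages. In those macrophages Ntn1 had 4.66 and 3.41 CPM.

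Lymphatic endothelial cells, with 36 and 29 cells, were too few for the fit. In them Ntn1 had 463 and 662 CPM from 69 and 73 UMIs, above all classes of the fit. In a fit that allowed classes of 25 cells, added after the data were seen, it was higher than in the other non-neuronal classes (adjusted p = 4.10e-37 by edgeR). In that comparison 1 of 10 guidance genes was called, against 9.03% of the 16013 genes tested. Robo1, Slit1, Slit2, Unc5c and Unc5d had 0 of the tested UMIs in both libraries of these cells, which allows up to 20.1 and 27.2 CPM, and among all UMIs Robo1 had 2 in library 2.

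Smooth muscle cells and pericytes, the mural cells of vessels, both carried Slit3. Smooth muscle cells had 536 and 581 CPM, against 112 and 127 CPM in the other non-neuronal classes pooled (adjusted p = 1.66e-70 by edgeR). Pericytes had 301.3 and 300.7 CPM, against 122 and 138 CPM (adjusted p = 1.66e-41 by edgeR). Slit2 and Unc5c were also higher in both classes than in the mean of the others, although the pooled Slit2 ratio of smooth muscle cells was at most 1.39. Robo1 was called in pericytes, with 48.0 and 53.2 CPM against 10.7 and 12.8 CPM in the pooled others (adjusted p = 1.21e-19 by edgeR).

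Set directly against pericytes, smooth muscle cells differed in 2 of 9 tested guidance genes, against 19.5% of the 15029 genes tested. Slit3 was higher in smooth muscle cells, with a fitted log2 change of 1.08 ± 0.10 (SE, adjusted p = 1.63e-17 by edgeR). Robo1 was lower, at 2.39 and 3.29 CPM in smooth muscle cells against 48.0 and 53.2 CPM in pericytes, with a fitted log2 change of -3.94 ± 0.45 (SE, adjusted p = 1.52e-13 by edgeR). The smooth muscle values rest on 3 and 4 UMIs. The ligand and its receptor thus ran in opposite directions between the mural classes.

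Blood endothelial cells carried Robo2, Unc5b and Robo1. Robo2 had 25.9 and 18.1 CPM there, against 6.01 and 6.79 CPM in the other non-neuronal classes pooled (adjusted p = 1.40e-22 by edgeR). Unc5b had 23.2 and 20.2 CPM, against 3.66 and 3.12 CPM (adjusted p = 1.23e-19 by edgeR). Robo1 had 13.3 and 12.7 CPM and passed the test (adjusted p = 8.35e-08 by edgeR), but not when cells were thinned to 1500 UMIs, and its ratio to the pooled others was 1.20 and 0.93. Robo4, the endothelial Robo, was at 145 and 146 CPM, and at most 2.43 CPM in every other population of the fit.

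Of the 975 and 881 blood endothelial cells, only those of an arterial and a venous cluster were compared. A capillary cluster, clusters without a subtype name and a smaller venous cluster of 28 and 36 cells were left out. Arterial endothelial cells (166 and 122 cells) differed from venous ones (174 and 173 cells) in 4 of 9 tested guidance genes, against 14.1% of the 15029 genes tested. Unc5b had 50.3 and 48.1 CPM in arterial cells against 6.08 and 1.03 CPM in venous cells, with a fitted log2 change of 3.44 ± 0.49 (SE, adjusted p = 2.33e-09 by edgeR). Robo2 had 4.19 and 9.24 CPM in arterial cells against 52.74 and 33.98 CPM in venous cells, with a fitted log2 change of -3.05 ± 0.43 (SE, adjusted p = 1.82e-09 by edgeR). The arterial and venous values of both genes did not overlap, but the share of all genes without such overlap was not counted.

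Robo1 and Ntn1 were also lower in arterial cells. Robo1 had 2.80 and 3.70 CPM in arterial cells, from 2 UMIs in each library, against 15.2 and 19.6 CPM in venous cells (adjusted p = 0.000559 by edgeR). Ntn1 had 4.19 and 14.8 CPM in arterial cells against 25.4 and 33.0 CPM in venous cells (adjusted p = 0.000262 by edgeR). Slit3 had 25.2 and 38.8 CPM in arterial cells, on both sides of 29.4 and 28.8 CPM in venous cells. Of the related genes 2 were higher in arterial cells and 3 lower, of 25 tested.

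**Figure D4:**
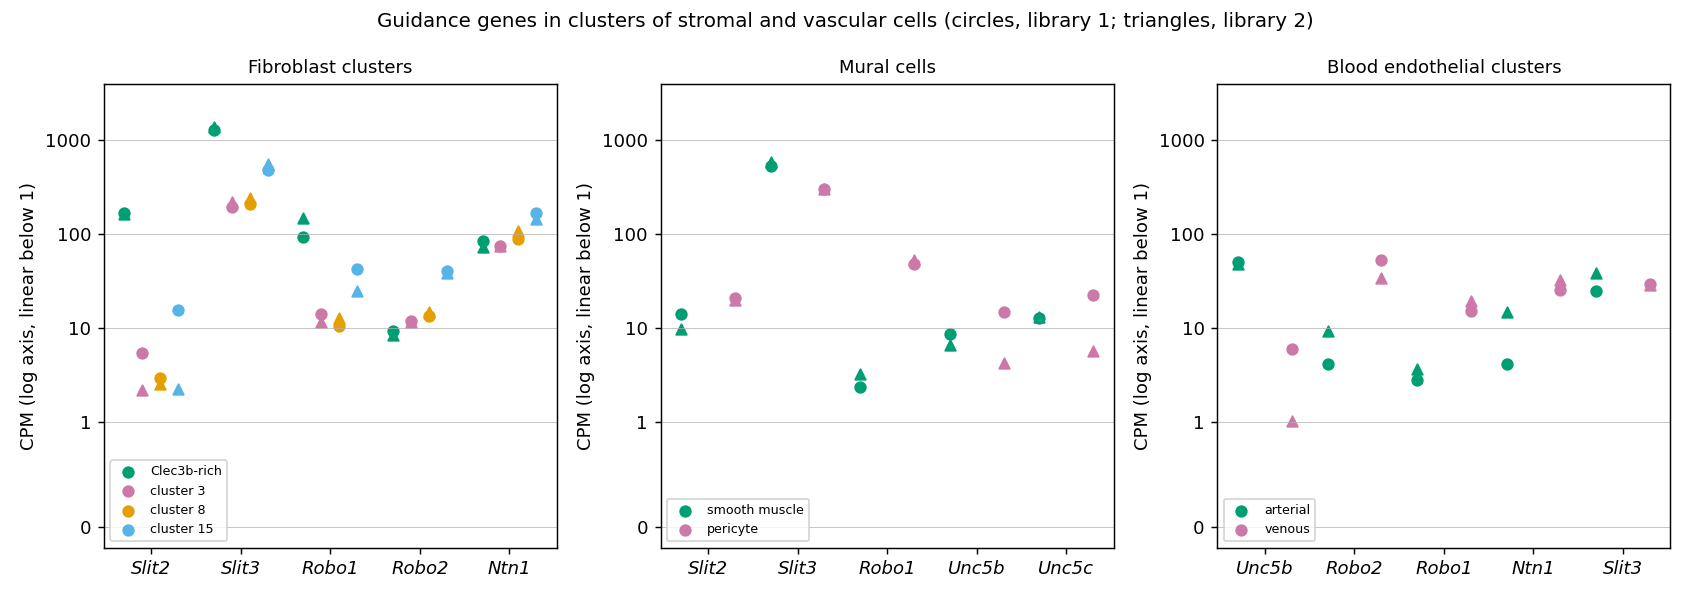
Level in CPM (vertical, log axis that is linear below 1) of guidance genes in the 4 fibroblast clusters (left), in smooth muscle cells and pericytes (middle) and in arterial and venous endothelial clusters (right), with circles for library 1 and triangles for library 2. Clec3b-rich fibroblasts are highest for Slit2 and Slit3, Robo1 is at 48.0 and 53.2 CPM in pericytes and at most 3.29 CPM in smooth muscle cells, and Unc5b and Robo2 run in opposite directions between arterial and venous cells.

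Slit1 was a macrophage transcript in these libraries, at a low level. It had 7.77 and 11.2 CPM in macrophages, from 35 and 49 UMIs, against 0.083 and 0.195 CPM in the other non-neuronal classes pooled, where it rested on 3 and 7 UMIs (adjusted p = 1.52e-21 by edgeR). Of all Slit1 UMIs, 81.1% and 86.9% were in macrophages, 73 of 90 and 86 of 99. After thinning it was found in 2.85% and 4.72% of macrophages, against 0.212% and 0% of satellite glia, where 0 of 1800 cells had a UMI and the exact 95% binomial interval reaches 0.205%, a limit on cells with a UMI and not on cells that express Slit1. A small Folr2-expressing macrophage cluster of 64 and 63 cells had 8.10 and 30.8 CPM, from 2 and 8 UMIs. Robo1 and Robo2 were at or below 2.96 CPM in macrophages.

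Glia and immune cells carried few of the other genes. Satellite glia were called for 4 of 10, 1 higher (Ntn1) and 3 lower, against 50.7% of all genes. Non-myelinating Schwann cells were called for 3 of 10, 1 higher (Ntn1) and 2 lower, against 43.3% of all genes. The ratio of Ntn1 to the pooled others was 0.448 and 0.506 in satellite glia and 0.635 and 0.611 in non-myelinating Schwann cells, and both Ntn1 calls were lost when lymphatic cells entered the mean. Dendritic cells were called lower in 4, against 52.1% of all genes called, and macrophages in 4 besides the higher Slit1, against 48.8%. None of these counts is far above the share of all genes. The Slit2 and Unc5c calls of both immune classes were lost when cells were thinned to 1500 UMIs. Myelinating Schwann cells were called for Slit2, but with 6.87 and 30.5 CPM, from 3 and 14 UMIs, the libraries were far apart. Mast cells were called for Unc5b, on 3 and 6 UMIs. Neither call held when cells were thinned to 1500 UMIs.

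Genes whose level ran most alike over the 13 populations were ranked by Pearson correlation of log CPM, as a description without a test. The points share libraries and depth. Psd, Kcnh7 and Snph were closest to Dcc (r of 0.979, 0.978 and 0.977), and Scn2a, Srrm4 and Rai1 to Unc5c (0.964, 0.964 and 0.959). Rbms1 was closest to Robo1 (0.956), Misp to Robo2 (0.981), Dus4l to Slit2 (0.923), Ttc7b to Unc5b (0.952) and Fmo1 to Ntn1 (0.944). Gm15866 (0.952) and Gm12122 (0.946) were closest to Slit3, and Gm12122 lies within the Slit3 gene on the same strand, so that its reads may not be separable from those of Slit3. Antisense genes overlapping Unc5c and Slit2 had at most 14 UMIs each.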

How the data were processed

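The libraries were made with 10x 3' v3.1 chemistry, and the deposited counts are UMIs per gene and cell from Cell Ranger 6.1.2 on mm10, per the submitters' processing notes. The sources used here do not say whether introns were counted. Cells needed at least 500 genes, 1000 UMIs and under 20% mitochondrial UMIs, which 0 and 1 barcodes failed, and 561 and 638 were left out as doublets by Scrublet. The UMIs of each cell were split at random: one part was clustered (scanpy 1.11.5, without 62 guidance genes) and named from markers, with the scoring rule chosen after the clusters were seen, and the other was summed per population and library. Populations with at least 50 cells per library entered edgeR 4.0.16 quasi-likelihood fits with the library as a block, one over 13 classes and one over 26 populations. Only the fit over 13 classes was tried on simulated data, for the comparison of the neuron types. The simulated means were taken from the fit of the real counts. The fit over 26 populations was not tried on simulated data. The block is the library, since both cell types of a comparison come from the same suspension. The p-values measure only the variation between these libraries that is left after the block. It is pooled over the populations of a fit and drawn toward that of all genes, and it may be technical. DESeq2 1.42.0 was an alternative. The genes and lists were chosen with earlier results of these data known. Named are the 10 genes, called genes of 2 lists with large folds, and genes among the 3 closest to each by correlation.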

Additional observations from a re-analysis of the deposited data

How the results depend on the processing

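Of 67 called values of the guidance genes, tested again under 558 alternatives in all, 519 kept direction and call, 37 lost the call and 2 reversed. With doublets kept, Slit2 in dendritic cells became 0.29 and Unc5b in fibroblasts 0.31 on the log2 scale. The cells were clustered anew in that setting, and a T cell class entered the mean of the others. Among uncalled values, Ntn1 between Shox2-rich and Rxfp1-rich neurons turned to 0.0057 after thinning to 1500 UMIs, and Slit1 to -0.43 when all UMIs were tested. Genes called over all genes were 6017 after thinning, against 10674, for neurons against other classes. Between Shox2-rich and Rxfp1-rich neurons they were 1511 with all UMIs tested and 238 after thinning, against 1006. The cause was not tested. Each comparison was paired within libraries by design. Without the replicate block, 914 genes were called between the neuron types, with the same 5 guidance genes, and Ntn1 in Clec3b-rich fibroblasts lost its call (adjusted p = 0.0719 by edgeR), as it did under DESeq2 (adjusted p = 0.0850). Leaving out 1 library leaves no residual degrees of freedom, so those values carry no test. Depth limits Slit1, Unc5d and all values of mast and lymphatic cells, which rest on few UMIs.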
